A study of Rattus norvegicus with 24 samples.

Results

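The 10 genes described here encode enzymes of glycolysis in the rat, namely Hk1, Gpi, Pfkm, Pfkp, Aldoa, Tpi1, Pgam1, Eno1, Eno2 and Pkm. They were taken by gene name from the 32883 reference genes that all 24 tables list. The rule used none of their measured values, but the 10 names were set with earlier results of these data known. Each name was found once, and all 10 genes were among the 15644 genes tested. The RNA came from the frontal cortex of adult male Sprague-Dawley rats in an inhalation study of an aerosol of tungsten particles, taken 24 h after exposure. The groups were Control (0 mg/m3), Low (5 mg/m3) and High (80 mg/m3), with 8 rats in each, and no group carried a genetic change according to the labels. Each sample label also carried the word Repeat, and whether it refers to the exposure is not settled here. Polyadenylated RNA was sequenced from stranded libraries, and for each rat the authors deposited a gene table from StringTie, which builds transcripts from aligned reads and estimates their levels. The comparisons ask how a low and a high concentration of the aerosol differed from exposure at 0 mg/m3 and from each other.

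Glycolysis splits glucose into pyruvate in the cytosol and yields ATP without oxygen. In brain it feeds both the mitochondria of neurons and the lactate that astrocytes release, and most of its steps are shared by all cell types, while some steps have isoenzymes with a preferred cell type. Eno2 is known as the enolase of neurons and Aldoc as the aldolase of astrocytes, whereas Eno1 and Aldoa are the widespread forms. Frontal cortex is a mixture of cells, and in such bulk RNA fewer cells of a type and less RNA per cell cannot be told apart.

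In the order of the pathway, Hk1 (ENSRNOG00000046891, chromosome 20, 31912262 to 31956649, minus strand) encodes the hexokinase of brain, which phosphorylates glucose. Gpi (ENSRNOG00000023150, chromosome 1, 90063411 to 90091287, minus strand) encodes glucose-6-phosphate isomerase. Pfkm (ENSRNOG00000057988, chromosome 7, 139685573 to 139722132, plus strand) and Pfkp (ENSRNOG00000017163, chromosome 17, 68511064 to 68559471, minus strand) encode the muscle and platelet types of phosphofructokinase, the main point of control of the pathway. Aldoa (ENSRNOG00000052802, chromosome 1, 198228387 to 198233588, minus strand) encodes the aldolase that cleaves the 6-carbon sugar. Tpi1 (ENSRNOG00000015290, chromosome 4, 157328379 to 157331905, minus strand) encodes triosephosphate isomerase, which interconverts the products of aldolase. Pgam1 (ENSRNOG00000050585, chromosome 1, 261158261 to 261165808, plus strand) encodes the brain form of phosphoglycerate mutase. Eno1 (ENSRNOG00000017895, chromosome 5, 167288223 to 167299609, plus strand) and Eno2 (ENSRNOG00000013141, chromosome 4, 157285179 to 157294047, minus strand) encode enolases, which make phosphoenolpyruvate. Pkm (ENSRNOG00000011329, chromosome 8, 64481172 to 64502722, plus strand) encodes pyruvate kinase, which makes pyruvate and ATP. Eno2 and Tpi1 lay on the same strand of chromosome 4 with 34331 bases between them, and genes between them were not looked for. Positions are whole genes as the tables give them. The submitters' processing notes name the build mRatBN7.2, but many gene names in the tables come from contigs of an earlier rat assembly, so the build of these positions is not settled here.

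Promoter windows of RefSeq (build GRCr8, 250 bases before to 50 bases after a start) were found for all 10 genes by symbol, 14 windows in all. They were searched on both strands for ACGTG and GCGTG, the forms of the core to which hypoxia-inducible factors bind, since these factors are known to drive many glycolytic genes, and for CACGTG, which contains ACGTG. At least 1 of ACGTG and GCGTG was in 9 of the 14 windows (64.3%), compared with 41.6% of the 33469 windows of all genes. ACGTG was in 7 of 14 (19.3% of all windows), GCGTG in 4 of 14 (29.7% of all windows), and CACGTG in 0 of 14 (6.42% of all windows). The windows of these genes had a median GC content of 62.3%, against 51.7% over all windows, and short GC-rich words are found more often in GC-rich sequence. The 250 bases before the start are shown for Pgam1 (chr1:250672902-250673151, plus strand), whose window held both words. They are also shown for Eno2 (chr4:159267221-159267470, minus strand) and Tpi1 (chr4:159305089-159305338, minus strand), which lie near each other. The window of Eno2 held ACGTG and that of Tpi1 held none of the words. Capitals mark a match on either strand, read on the strand of the gene, so that CACGC is GCGTG on the other strand.
Pgam1: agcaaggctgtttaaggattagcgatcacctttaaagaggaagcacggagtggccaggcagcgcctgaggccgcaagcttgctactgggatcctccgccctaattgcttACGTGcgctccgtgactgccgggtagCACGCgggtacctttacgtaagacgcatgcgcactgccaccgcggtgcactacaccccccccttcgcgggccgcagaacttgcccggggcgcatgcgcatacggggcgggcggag
Eno2: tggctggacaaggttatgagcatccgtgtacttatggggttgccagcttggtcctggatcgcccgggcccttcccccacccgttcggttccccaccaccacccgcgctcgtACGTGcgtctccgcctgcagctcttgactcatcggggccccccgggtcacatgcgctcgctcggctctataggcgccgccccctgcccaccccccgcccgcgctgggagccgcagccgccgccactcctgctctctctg
Tpi1: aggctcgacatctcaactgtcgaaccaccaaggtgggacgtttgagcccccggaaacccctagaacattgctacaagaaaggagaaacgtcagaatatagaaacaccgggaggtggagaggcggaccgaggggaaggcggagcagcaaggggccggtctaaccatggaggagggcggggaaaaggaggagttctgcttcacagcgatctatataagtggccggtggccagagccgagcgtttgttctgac
In Pgam1 the matches started 141 and 115 bases before the start, and in Eno2 the match started 139 bases before it. A match of letters is a description of the window and does not show binding.

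The coverage column gives the mean read depth per base of a gene and was used here to order the genes. The level of Aldoa, Pkm, Eno1 and Pfkm depends on which coverage is meant, as described below. Coverage was divided by the sum over the reference genes of the rat and multiplied by 1000000, and this value is called scaled coverage. In Control rats the 10 genes together took 0.471% of the reference coverage. Aldoa was by far the highest, at a scaled coverage of 1619 ± 141 (SD, n = 8), which placed it at rank 43 of the 32883 reference genes. It was followed by Pgam1 at 570 ± 47.7, which was 2.84-fold lower in mean and below Aldoa in 8 of 8 Control rats. A middle group was formed by Gpi (452 ± 46.9), Pkm (440.4 ± 42.8), Tpi1 (402 ± 32.9) and Eno2 (390.02 ± 30.7). Neighbours in that group overlapped, with Gpi above Pkm in 5 of 8 Control rats, Pkm above Tpi1 in 7 of 8 and Tpi1 above Eno2 in 6 of 8. The lower levels were those of Eno1 (263 ± 25.9), Pfkp (237 ± 32.6), Hk1 (204 ± 28.2) and Pfkm (128 ± 8.82). Eno1 was above Pfkp, and Pfkp above Hk1, in 7 of 8 Control rats, while Hk1 was above Pfkm in all 8. The coefficient of variation over Control rats was 6.88% for Pfkm to 13.8% for Hk1, compared with a median of 11.4% over the 1431 genes with a Control mean of at least 100.

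**Figure D1:**
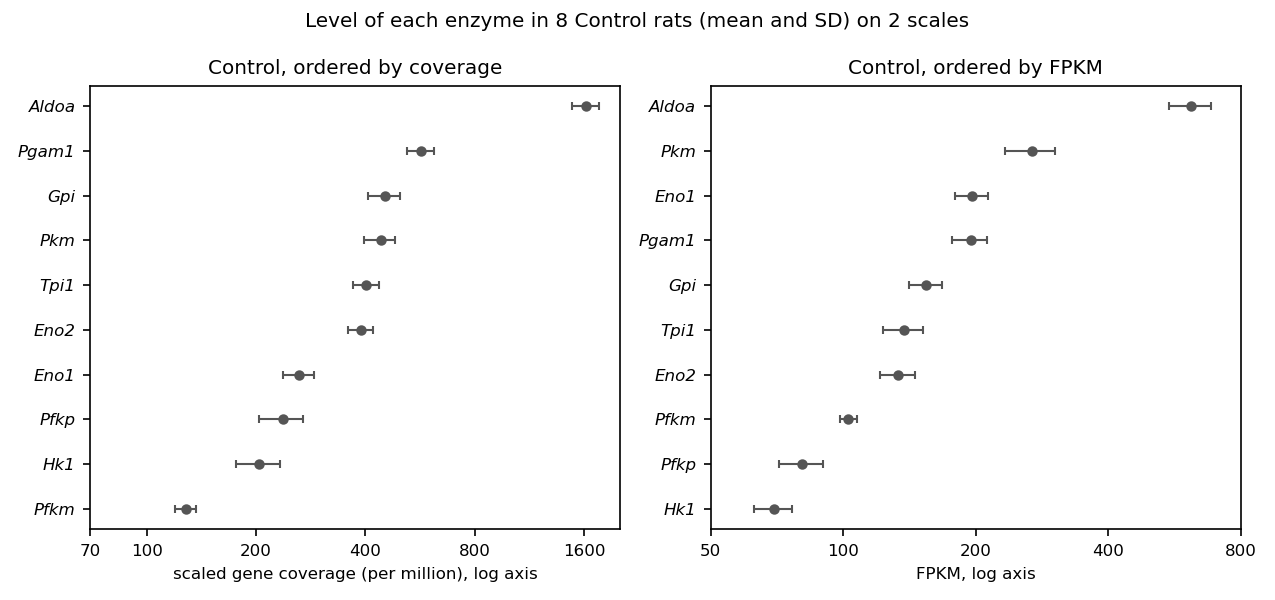
Mean level (points) and SD (bars) of each enzyme in 8 Control rats, ordered from high to low on scaled coverage (left) and on FPKM (right), both on log axes. Aldoa leads on both scales, while Pkm, Eno1 and Pfkm stand higher on FPKM than on coverage.

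The order differed on the FPKM scale, which StringTie sums over the transcripts of a gene. By FPKM in Control, Aldoa (617 ± 68.6) was followed by Pkm (268 ± 34.4), Eno1 (196 ± 16.5) and Pgam1 (195 ± 17.9). The means of Eno1 and Pgam1 differed by less than the spread between rats, and Eno1 was the higher of both in 3 of 8 Control rats. Gpi (154 ± 13.2), Tpi1 (137 ± 14.2) and Eno2 (133 ± 12.2) came next, then Pfkm (103 ± 4.69), Pfkp (80.7 ± 9.36) and Hk1 (69.5 ± 6.83). The enolase of neurons was therefore above the widespread form by gene coverage and below it by FPKM, and Pfkp was above Pfkm by coverage and below it by FPKM. Both turns go with 1 property of the tables. The ratio of transcript-based to gene-based coverage was computed as FPKM times a factor of the library, divided by gene coverage. That factor was estimated from the same table, as the coverage over FPKM at the upper end of its values. A ratio of 1 therefore marks genes at that upper end and is no measurement against sequencing depth. The ratio was 1 in every rat for Hk1, Gpi, Pfkp, Tpi1, Pgam1 and Eno2. In Control it was 1.11 for Aldoa, 1.78 ± 0.158 for Pkm, 2.19 ± 0.0136 for Eno1 and 2.35 ± 0.0713 for Pfkm. For these 4 genes the level therefore depends on which coverage is meant.

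The same ratio differed between the kinds of table. The Low tables held 0 loci assembled from the reads, whereas each Control and High table held at least 46334, so that the kind of table and the Low group cannot be told apart in any comparison with Low. For Pkm the ratio was 2.09 in Low, against 1.51 to 1.88 in Control and 1.54 to 1.90 in High. For Pfkm it was 2.49 in all 8 Low rats, against 2.21 to 2.43 in Control. Fold changes between Low and the other groups were taken from gene coverage. Gene coverage was not shown to be free of the difference between the kinds of table. Reference genes listed at 0 numbered 12813 to 14387 in the Low tables, against 11323 to 12400 in those of Control and High. In all 16 Control and High tables a locus assembled on the same strand lay over each of the 10 genes. For Tpi1 and Pgam1 its coverage equalled that of the reference gene in 16 of 16 tables (within 0.001 percentage points), so for these genes both entries list 1 signal. For the other enzymes the median share of the gene coverage ran from 24.5% (Gpi) to 203% (Eno1). Among these the coverage was equal in 1 table each for Eno2, Gpi and Pkm and in 2 for Pfkm, so a repeat in all tables was not shown there. Assembled loci were not added in the main results. Across the 24 libraries, coverage summed over reference genes was 1.64 to 3.07 in units of 1000000, and genes of the mitochondrial genome took 21.8% to 33.8% of it. Several glycolytic enzymes, among them Aldoa, Pgam1, Tpi1 and Eno1, have processed pseudogenes in mammalian genomes, and how reads with several places of alignment were assigned is among the steps not given in the sources used here.

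In Low compared with Control, all 10 enzymes had a higher mean scaled coverage, and 0 of 10 passed the test. The log2 fold changes lay between 0.10 and 0.19 with a median of 0.16, compared with a median of 0.06 over all genes tested, of which 10404 of 15644 were above 0. The test was limma on log2(scaled coverage + 1) with all 24 rats in 1 fit, two-sided, with Benjamini-Hochberg adjustment over the 15644 genes, and it called 6.11% of them at an adjusted p under 0.05, 192 higher and 764 lower. With the sum outside the mitochondrial genome as the scale the split was 841 higher and 847 lower. The adjusted p of the 10 genes was 0.112 to 0.570. Without adjustment, p was under 0.05 for 8 of 10 enzymes, against 18.4% of all genes. The groups overlapped for each of the 10 genes, and 0.0831% of all genes were higher in Low with no overlap.

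**Figure D2:**
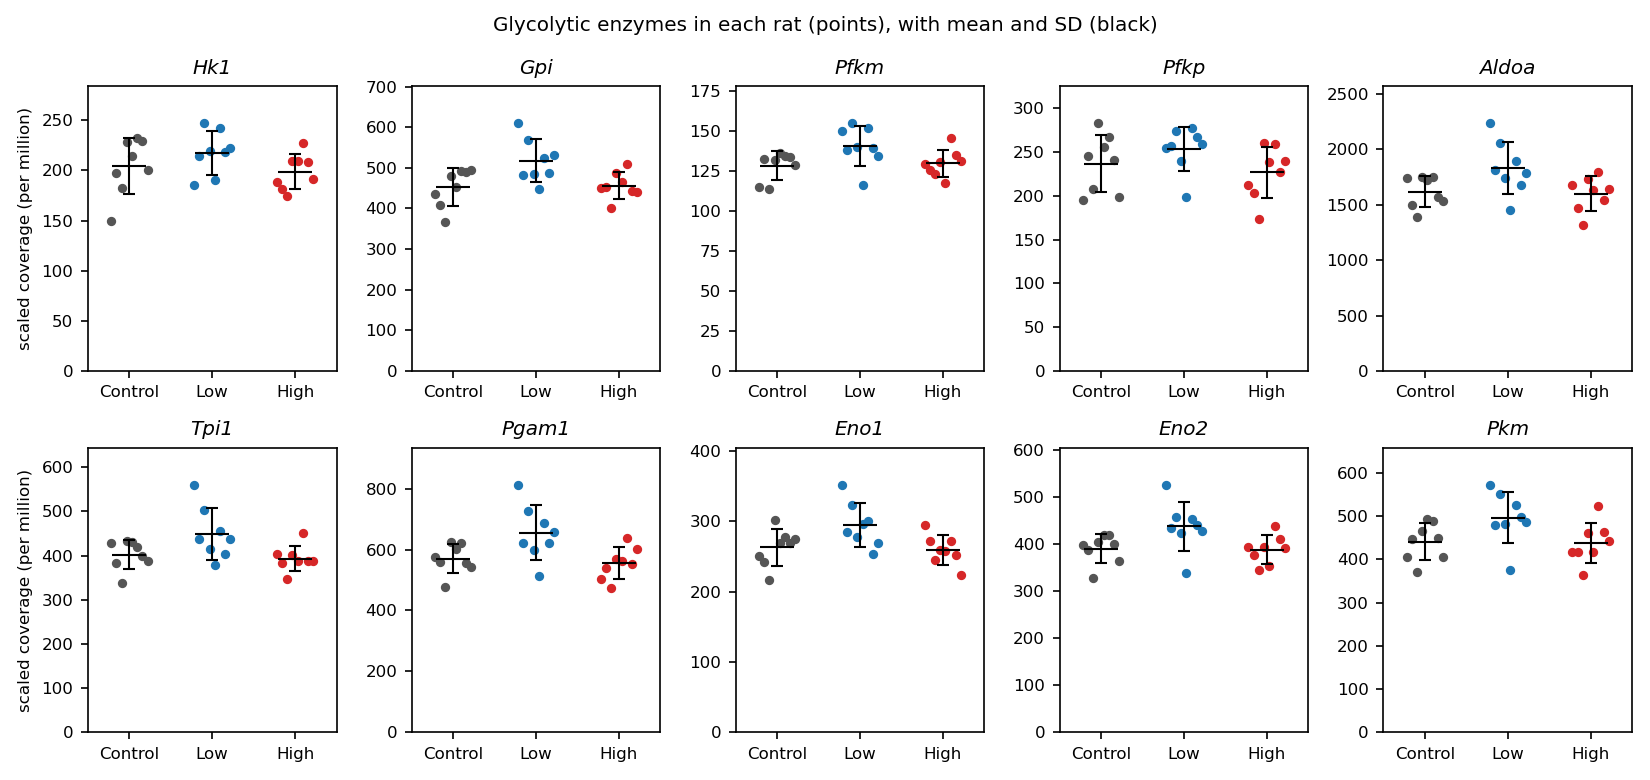
Scaled coverage (coverage per 1000000 of reference coverage, axes from 0) of each enzyme in each rat of the Control, Low and High groups, with the group mean and SD in black. Most Low rats lie in the upper part of the Control range or above it, and High rats lie within or near the Control range.

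Among the steps from glucose to the triose phosphates, Gpi differed most. Gpi ranged from 366 to 494 in Control (median 467) and from 448 to 610.2 in Low (median 507), a log2 fold change of 0.19 ± 0.07 (SE; limma adjusted p = 0.112). Aldoa ranged from 1387 to 1754 in Control (median 1645) and from 1457 to 2237 in Low (median 1800.2), a log2 fold change of 0.17 ± 0.08 (limma adjusted p = 0.229). For both genes 7 of 8 Low rats were above the Control median, and 4 Low rats for Gpi and 5 for Aldoa were above the highest Control rat. Pfkm ranged from 114 to 136 in Control (median 132) and from 116 to 155 in Low (median 139.6), with 6 of 8 Low rats above the highest Control rat (log2 fold change 0.13 ± 0.06, limma adjusted p = 0.233). Tpi1 ranged from 338 to 433 in Control (median 409) and from 378 to 560.3 in Low (median 437; log2 fold change 0.15 ± 0.07, limma adjusted p = 0.253). The smallest differences were those of Hk1 and Pfkp, the hexokinase and the platelet-type phosphofructokinase. Hk1 ranged from 150.1 to 233 in Control (median 208) and from 185 to 247 in Low (median 219; log2 fold change 0.10 ± 0.08, limma adjusted p = 0.565). Pfkp ranged from 195 to 283 in Control (median 243) and from 199 to 278 in Low (median 258), so that 0 of 8 Low rats were above the highest Control rat (log2 fold change 0.10 ± 0.09, limma adjusted p = 0.570).

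In the steps from phosphoglycerate to pyruvate, Eno2 separated the groups best by rank. Eno2 ranged from 327 to 419 in Control (median 399) and from 339 to 526 in Low (median 437), and 7 of 8 Low rats were above the highest Control rat. Its log2 fold change was 0.16 ± 0.07 (SE; limma adjusted p = 0.213). The remaining Low rat, replicate 61, was near the lower end of the Control range. Pgam1 ranged from 479 to 624 in Control (median 566) and from 514 to 813 in Low (median 640.0), a log2 fold change of 0.19 ± 0.08 (limma adjusted p = 0.168). Eno1 ranged from 217 to 302 in Control (median 269) and from 253 to 352 in Low (median 291; log2 fold change 0.16 ± 0.07, limma adjusted p = 0.200). Pkm ranged from 371 to 492 in Control (median 448) and from 375 to 572 in Low (median 492; log2 fold change 0.17 ± 0.08, limma adjusted p = 0.262). Pgam1 and Pkm each had 4 of 8 Low rats above the highest Control rat, and Eno1 had 2. Without Low replicate 61, Eno2 (log2 fold change 0.21, limma adjusted p = 0.0403) and Pgam1 (0.24, limma adjusted p = 0.0473) passed the test, where 2.07% of all genes were called higher. When coverage was divided by the sum over reference genes outside the mitochondrial genome, Gpi, Pfkm, Pgam1, Eno2 and Pkm passed it at log2 fold changes of 0.15 to 0.22 (limma adjusted p = 0.0146 to 0.0459), and on that scale 5.38% of all genes were called higher. On the deposited FPKM 10 of 10 enzymes were called higher together with 86.5% of all genes, on TPM 8 of 10 with 20.4%, and with the sum over all rows of the tables it was 10 of 10 with 88.5%, while adding the assembled loci gave 10 of 10 lower with 96% of all genes.

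**Figure D3:**
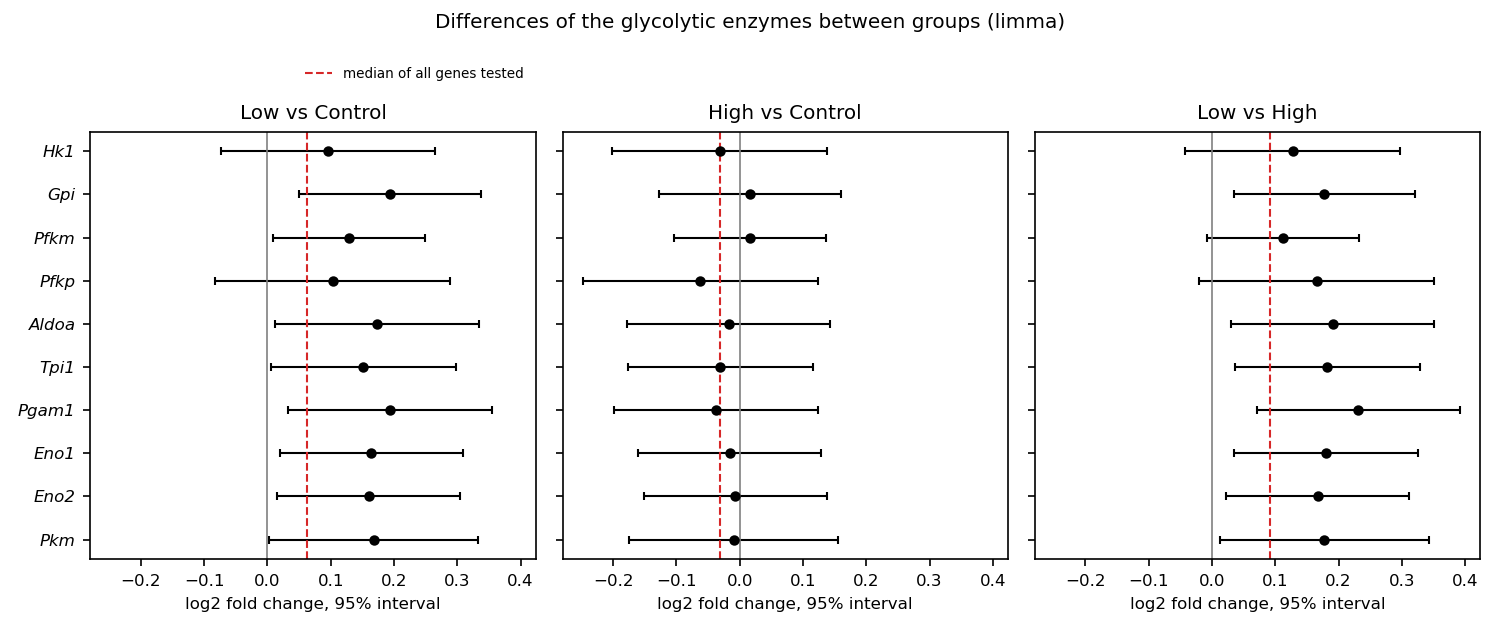
Log2 fold change of each enzyme (points) with its 95% interval from limma (bars) in the 3 comparisons, with 0 as a grey line and the median of all genes tested as a dashed red line. The 10 points lie to the right of the dashed line in both comparisons with Low, and around 0 in High against Control.

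In High compared with Control, the enzymes differed little. Log2 fold changes lay between -0.06 for Pfkp and 0.02 for Gpi, with a median of -0.017 beside -0.031 over all genes tested. None of the 10 passed the test (limma adjusted p = 0.999 for each), 0 of 10 had an unadjusted p under 0.05, and limma called 0% of all genes. By limma 330 of the 15644 genes (2.11%) had an unadjusted p under 0.05, and an exact Wilcoxon rank-sum test also called 0 genes after adjustment. The 95% intervals of the 10 log2 fold changes lay within -0.25 to 0.16, so larger differences than these were outside every interval. Aldoa ranged from 1317 to 1799 in High (median 1635), Pgam1 from 475 to 638 (median 558) and Eno2 from 346 to 439 (median 393). Gpi ranged from 400.5 to 511 in High (median 452), Pkm from 363 to 522 (median 429.6) and Tpi1 from 346 to 451 (median 388). These ranges lay over those of the Control rats. Hk1 ranged from 174 to 227 in High, Pfkm from 117 to 145, Pfkp from 174 to 261 and Eno1 from 224 to 295.

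Low compared directly with High gave differences of the size seen in Low against Control, and the Low rats are used in both. All 10 log2 fold changes were above 0, from 0.11 for Pfkm to 0.23 for Pgam1, with a median of 0.18 beside 0.09 over all genes. None of the 10 passed the test, while limma called 11.7% of all genes, 829 higher and 999 lower. With median-of-ratios scaling, which sets the median of all genes near 0, that split was 369 higher and 1302 lower, and the 10 enzymes were still above 0, at a median of 0.081 (0.10 in Low against Control), with 0 called. Pgam1 came nearest, at 0.23 ± 0.08 (SE; limma adjusted p = 0.0539), with 7 of 8 Low rats above the High median. Tpi1 (0.18 ± 0.07, limma adjusted p = 0.0918), Eno1 (0.18 ± 0.07, limma adjusted p = 0.0923), Gpi (0.18 ± 0.07, limma adjusted p = 0.0942) and Aldoa (0.19 ± 0.08, limma adjusted p = 0.108) followed. Without adjustment, p was under 0.05 for 7 of 10 enzymes and for 29.1% of all genes. Hk1, Pfkm and Pfkp were the 3 enzymes above that limit. Without Low replicate 61, 6 enzymes passed the test, namely Gpi, Aldoa, Tpi1, Pgam1, Eno2 and Pkm (limma adjusted p = 0.0123 to 0.0453), together with 9.75% of all genes called higher. Pgam1 also passed it without Control replicate 49, Control replicate 51 or High replicate 70 (limma adjusted p = 0.0309 to 0.0464), where 10.2%, 5.41% and 7.03% of all genes were called higher. With the sum outside the mitochondrial genome, Gpi, Tpi1, Pgam1, Eno2 and Pkm passed it (limma adjusted p = 0.0129 to 0.0493), where 9.77% of all genes were called higher. On FPKM 10 of 10 enzymes were called higher with 86.2% of all genes, on TPM 6 of 10 with 19.2%, and with the sum over all rows it was 10 of 10 with 88.1%, while 8 of 10 were called lower with 93.7% of all genes once the assembled loci were added.

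The enzymes were also read rat by rat. For each rat the log2 difference of each enzyme from its Control mean was averaged over the 10 genes. This average lay between -0.23 and 0.13 in Control rats (median 0.0042), between -0.11 and 0.34 in Low rats (median 0.13) and between -0.22 and 0.16 in High rats (median -0.021). The median difference of all genes tested, taken in the same way, lay between -0.23 and 0.12 in Control rats, -0.061 and 0.19 in Low rats and -0.12 and 0.068 in High rats. In Low replicate 57, the highest (0.34, all genes -0.061), 9 of 10 enzymes were above the Control mean, and only Hk1 was below it. In Low replicate 59 (0.30, all genes 0.19) and Low replicate 62 (0.23, all genes 0.16) all 10 were above it, and in Low replicate 60 the enzymes (0.096) and all genes (0.097) lay together. Low replicate 61 (-0.11) had 1 of 10 enzymes above the Control mean, and this was Eno1. Control replicate 51 (-0.23) and High replicate 67 (-0.22) had 0 of 10 above it. Other rats were mixed, with 3 to 7 of 10 above it in Control replicates 49, 50, 55 and 56 and High replicates 65, 69, 71 and 72, and in Control replicate 49 single enzymes ran from -0.43 to 0.11. The share of the mitochondrial genome, which is part of the sum used for scaling, was lower in rats whose enzymes were higher, with a Pearson r of -0.74 to the mean of the 10 enzymes over the 24 rats after group means were subtracted, given as a description since both share 1 scaling sum. Low replicate 61 had the highest mitochondrial share of all libraries (33.8%) and Control replicate 51 the highest of its group (29.97%), whereas Low replicate 59 (21.8%) and High replicate 70 (22.5%, average 0.16) had the lowest of theirs. Low replicate 57, with 25.9%, and High replicate 67, with 27.0%, did not lie at the ends of that share. The median share was 24.4% for Control rats, 25.1% for Low rats and 26.9% for High rats. Its part in the differences between groups was not tested beyond the scaling without it.

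**Figure D4:**
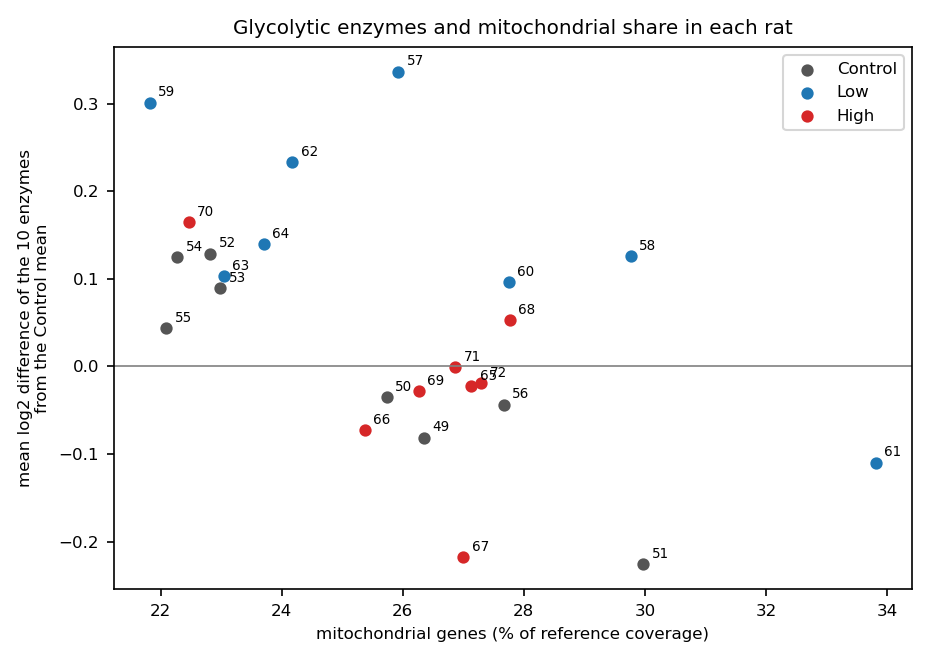
Mean log2 difference of the 10 enzymes from the Control mean (vertical axis) against the share of mitochondrial genes in the reference coverage (horizontal axis, %), with 1 point for each of 24 rats, coloured by group and labelled with its replicate number. Low replicate 61 lies at the far right, at 33.8%, below the other Low rats, and 7 of the 8 Low rats lie above 0.

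A ratio of isoenzymes within a rat does not depend on the scaling of the library. The groups were compared on the log2 ratio of gene coverage with exact permutation tests over the 12870 splits of 16 rats, two-sided, adjusted over the 12 tests. Eno2 over Eno1, the neuronal over the widespread enolase, had its median at 1.51 for Control rats (1.33 to 1.603), at 1.51 for Low rats (1.14 to 1.74) and at 1.47 for High rats (1.34 to 1.75). Its group means differed by -0.01 to 0.01 on the log2 scale (exact permutation adjusted p = 0.958 in each comparison). Pfkp over Pfkm had its median at 1.84 for Control rats (1.55 to 2.15), at 1.80 for Low rats (1.69 to 1.93) and at 1.73 for High rats (1.42 to 2.03), with an exact permutation adjusted p of 0.791 to 0.958. For these pairs no difference larger than the spread between rats was detected.

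Aldoc over Aldoa, the aldolase of astrocytes over the widespread form, was the ratio that differed. Its median was 0.355 for Control rats (0.314 to 0.419), 0.290 for Low rats (0.248 to 0.346) and 0.344 for High rats (0.291 to 0.453). All 8 Low rats were below the Control median and 6 of 8 below the lowest Control rat. The log2 ratio was lower in Low than in Control by a difference of -0.29 (exact permutation p = 0.00249, adjusted p = 0.0298). Between Low and High the difference was -0.25 (exact permutation p = 0.0219, adjusted p = 0.131), and between High and Control it was -0.04 (exact permutation adjusted p = 0.958). Neither gene passed limma on its own in Low against Control, where Aldoa was at 0.17 and Aldoc at -0.11 (limma adjusted p = 0.325), though Aldoc was above 0 on FPKM (0.55, where the median of all genes was 0.53) and with the sum over all rows (0.71, all genes 0.80). The call was kept without any 1 of Control replicates 52, 53 and 54 and Low replicates 60 and 61, and was lost without any 1 of the remaining 11 of the 16 rats (difference -0.32 to -0.25 and exact permutation adjusted p = 0.0149 to 0.0783 over all rats left out in turn). It was also lost with the FPKM column (difference -0.15, exact permutation adjusted p = 0.324), where the transcript to gene coverage ratio of Aldoc was 1.51 in Low and 1.36 in Control. Ldhb over Ldha, the subunits of lactate dehydrogenase that prevail in heart and in muscle, had its median at 1.89 for Control rats, 1.62 for Low rats and 1.87 for High rats. It differed by -0.18 between Low and Control (exact permutation adjusted p = 0.324), where 6 of 8 Low rats were below the Control median.

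**Figure D5:**
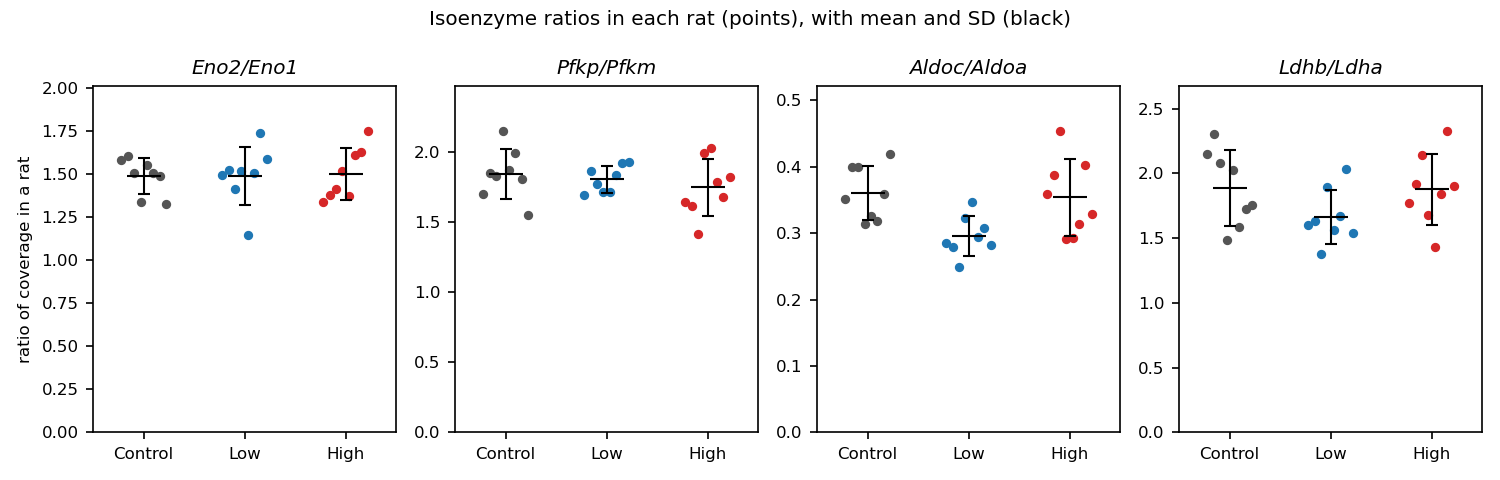
Ratio of gene coverage in each rat for Eno2/Eno1, Pfkp/Pfkm, Aldoc/Aldoa and Ldhb/Ldha in the Control, Low and High groups, with the group mean and SD in black and axes from 0. The Aldoc/Aldoa values of the Low rats lie at 0.248 to 0.346, in the lower part of the Control range of 0.314 to 0.419 or below it.

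How far the enzymes varied together was described over the 24 rats after the group means had been subtracted from the log2 values. All 45 pairs had a positive Pearson r, from 0.22 for Hk1 with Eno1 to 0.95 for Aldoa with Tpi1, with a median of 0.71. Eno2 and Tpi1, near each other on chromosome 4, had an r of 0.87, and Eno2 and Pkm an r of 0.93. The median r with the other 9 enzymes was highest for Eno2 (0.85), Pkm (0.83), Tpi1 (0.82), Pgam1 (0.82) and Aldoa (0.81). It was lowest for Hk1 (0.38) and Eno1 (0.47), the hexokinase at the entry of the pathway and the widespread enolase. The mean of the 10 enzymes had a median r of 0.19 with all genes tested. All values of a rat share 1 library and 1 scaling sum, so these r are descriptions with no p. The 5 named genes outside the 10 with the highest r to their mean were Atp6v1c1 (0.95) and Atp6ap2 (0.94), which belong to the vacuolar proton pump, Apbb1 (0.95), an adaptor that binds the amyloid precursor protein, Ppp2r1a (0.95), a scaffold subunit of protein phosphatase 2A, and Klc1 (0.94), a kinesin light chain. Genes named only by clone or locus number were left out of that ranking.

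The rest of the pathway and its neighbours were read from lists. Of 19 other glycolytic enzymes, 17 were found and 11 tested, and Gapdh, which was not matched by name, was not analysed here. In Low against Control 0 of the 11 passed the test, 10 were above 0, and their median was 0.08. The largest value was that of Pgam2, the muscle form of phosphoglycerate mutase, at a low level (mean scaled coverage 6.28 in Low and 3.62 in Control, 0.68 ± 0.25, limma adjusted p = 0.121). It passed the test without Control replicate 56 (0.86, limma adjusted p = 0.0122) or Low replicate 63 (0.81, limma adjusted p = 0.0396), and was at -0.0099 with libraries 56 to 62 as a covariate. Ldha was at 0.22 ± 0.09 (limma adjusted p = 0.196), Pfkl, the liver-type phosphofructokinase, at 0.19 ± 0.09 (limma adjusted p = 0.284) and Pgk1, phosphoglycerate kinase, at 0.13 ± 0.07 (limma adjusted p = 0.331). The counts of calls in these lists stand beside 6.11% of all genes called in Low against Control and 11.7% in Low against High. In Low against High, Bpgm, which makes the bisphosphoglycerate that phosphoglycerate mutase needs, was the only 1 of the 11 called, at 0.21 ± 0.06 (limma adjusted p = 0.0253). Of 10 tested regulators of the pathway, 0 were called in Low against Control, and Pdk3, a kinase that inhibits pyruvate dehydrogenase, was called higher in Low against High (0.29 ± 0.10, limma adjusted p = 0.0448). None of the 8 tested glucose and lactate transporters was called in any comparison by limma, with 1 of them at an unadjusted p under 0.05 in Low against Control and 0 in the others.

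The genes that take pyruvate into the citrate cycle were read in the same way, where 10404 of the 15644 genes tested were above 0 in Low against Control and 10940 in Low against High. Of 8 genes for the entry of pyruvate into mitochondria, 7 were above 0 in Low against Control and 0 were called. The other 1 was Mpc2, a subunit of the mitochondrial pyruvate carrier, at -0.14 ± 0.10 in Low against Control (limma adjusted p = 0.474) and -0.18 ± 0.10 in Low against High (limma adjusted p = 0.223), which was above 0 on FPKM (0.37 and 0.28), with the sum over all rows (0.68 and 0.58) and once libraries 56 to 62 were fitted as a covariate (0.039 and 0.031). In Low against High, Pdha1 (0.22 ± 0.06, limma adjusted p = 0.0150) and Dld (0.17 ± 0.06, limma adjusted p = 0.0436), which are subunits of the pyruvate dehydrogenase complex, were called higher. All 16 tested citrate cycle enzymes were above 0 in Low against Control (median 0.13, 0 called) and in Low against High (median 0.14), where Dlst of the oxoglutarate dehydrogenase complex was called (0.19 ± 0.06, limma adjusted p = 0.0369). In glycogen metabolism 1 of 10 genes was called in Low against Control. This was Gbe1, the branching enzyme, with a mean scaled coverage of 24.1 in Low and 19.3 in Control (0.30 ± 0.09, limma adjusted p = 0.0394), and it was also called against High (0.33 ± 0.09, limma adjusted p = 0.0153). Of 6 tested genes of the pentose phosphate pathway and 2 of gluconeogenesis, 0 were called in any of the 3 comparisons by limma, with 0 and 0 at an unadjusted p under 0.05 in Low against Control, 0 and 1 in High against Control, and 1 and 0 in Low against High. In High against Control 0 genes of these lists were called by limma.

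These calls lay close to the threshold. All 8 calls named from the lists, with that of Slco1a4, an endothelial transporter, were lost with median-of-ratios scaling (log2 fold changes of 0.079 to 0.25, limma adjusted p = 0.0559 to 0.485), and 6 of 8 with no filter on low values. With a rat left out, Gbe1 kept its call in Low against High and Pdha1 kept its own. Gbe1 lost the call in Low against Control without any 1 of Control replicates 49, 51, 52, 54, 55 and 56 and Low replicates 57, 58, 59, 60, 62 and 63 (limma adjusted p = 0.0504 to 0.0892). Bpgm lost it without Low replicate 62 or High replicates 68 or 71 (limma adjusted p = 0.0506 to 0.0572). Pdk3 lost it without any 1 of Control replicates 50 and 54, Low replicates 58, 59, 60, 62 and 64, and High replicates 65, 67, 68, 71 and 72 (limma adjusted p = 0.0500493 to 0.104). The 2 mitochondrial subunits were as close. Dld lost the call without any 1 of Control replicates 54 and 55, Low replicates 57, 58, 59, 62 and 64, and High replicates 65, 66, 67, 69 and 72 (limma adjusted p = 0.0503 to 0.101). Dlst lost it without any 1 of Low replicates 57, 59, 60 and 62 and High replicates 65, 67, 68, 69 and 72 (limma adjusted p = 0.0507 to 0.0826).

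Markers of cell types and of tissue at the edge of a frontal cortex sample were summed for each rat beside these values. All 8 neuron markers were detected, with a summed scaled coverage between 1945 and 2685 for Control rats, between 1854 and 2633 for Low rats and between 1554 and 2624 for High rats. In Low against Control 0 of the 8 neuron markers, 0 of 8 astrocyte markers, 0 of 8 oligodendrocyte markers and 0 of 6 microglia markers tested were called. The oligodendrocyte markers summed to between 4195 and 6070 for Control rats (5542 at the median), 4561 and 8592 for Low rats (6084) and 2686 and 6798 for High rats (5369). All 8 were above 0 in Low against Control (0.035 to 0.20, median 0.11) and in Low against High (0.17 to 0.35, median 0.24), the side on which the 10 enzymes lay, with 0 called by limma and 0 and 1 of them at an unadjusted p under 0.05. In High against Control all 8 oligodendrocyte markers were below 0 (median -0.13). Above 0 in Low against Control were also 6 of 8 neuron markers (median 0.11), 6 of 6 microglia markers (0.091) and 5 of 8 astrocyte markers (0.015). In Low against High these counts were 6, 4 and 6, with medians of 0.15, 0.039 and 0.10. The astrocyte list, which does not hold Aldoc, summed to between 1969 and 3333 for Control rats, 2351 and 3170 for Low rats and 1956 and 2792 for High rats. Striatum markers summed to between 425 and 966 for Control rats, 295 and 708 for Low rats and 208 and 1567 for High rats, and all 7 were below 0 in Low against Control (median -0.57, 0 called) and in High against Control (median -0.33, 0 called). The 4 tested erythrocyte markers (median -0.27) and the 5 tested markers of choroid plexus and meninges (median -0.37) were also all below 0 in Low against Control, with 0 called. In High against Control the 5 markers of choroid plexus and meninges were again all below 0 (median -0.26), and 1 of the 4 erythrocyte markers was above 0 (median -0.096). Endothelium markers summed to 53.1 to 103 in Control and 74.2 to 93.5 in Low, and among them Slco1a4 was called higher in Low against High (0.33 ± 0.10, limma adjusted p = 0.0235), a call lost without Low replicate 62, High replicate 65 or High replicate 72 (limma adjusted p = 0.0514 to 0.0569). Skeletal muscle markers summed to at most 19.3 in any rat. The part of these shifts in the differences of the glycolytic enzymes was not tested.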

How the data were processed

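Frontal cortex RNA of 24 rats was analysed, 8 in each of 3 groups taken from the sample labels. According to the submitters' processing notes, the reads were checked with FastQC, trimmed with Trimmomatic, aligned with TopHat2 and quantified with StringTie, on build mRatBN7.2. The sources used here name no versions or options. The authors deposited 1 gene table per rat. Its deposited coverage (mean depth per base, a signal not scaled for library size) was used for all main results. FPKM as deposited had been scaled per kilobase and by library size with StringTie. In units of 1000000, the deposited TPM summed to 1 for Low rats, whereas for Control and High rats the column of that name summed to 1.70 to 1.98, so it was treated there as a score. Counting error is unknown, as read counts were not analysed here.

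Coverage of entries of 1 gene was summed, divided by the sum over the 32883 reference genes and expressed per 1000000. All 15644 genes whose mean reached 1 were tested with limma 3.58.1 (trend, robust) in R 4.3.3 on log2(value + 1), where fold changes of weakly covered genes come out too small. Isoenzyme ratios were compared with exact permutation tests (scipy 1.17.1 and numpy 2.4.6 under Python 3.11.15). Both steps were tested on simulated data. Tables were read with pandas 2.3.3 and figures drawn with matplotlib 3.10.9. The replicates are separate rats.

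The 10 members, the gene lists, the alternatives and the comparisons were chosen with earlier results of these data known. Named genes are the 10 members, every listed gene called in a comparison, the isoenzymes in the ratios, and the 5 named genes most like the mean of the members. Pgk1, Pgam2, Pfkl and Mpc2 were named after their values were seen. The alternatives were a pseudocount of 0.1, no filter or a minimum mean of 5, other scalings, the FPKM and TPM columns, assembled loci added, 2 groups only, libraries 56 to 62 as a covariate (grouped from a pattern in earlier results, not a condition), an exact Wilcoxon rank-sum test and each rat left out. Protein sequences were not used here.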

Additional observations from a re-analysis of the deposited data

Results flagged for a closer look

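Rats that stood apart from the other 7 of their group were looked for in 51 sets of 8 values, namely the 10 enzymes with Aldoc, Ldha and Ldhb, and the 4 isoenzyme ratios, each in 3 groups. A rat was singled out where its gap to the nearest value, as a share of the range of the group, was above Dixon's 95% critical value for 8 values. Of the 51 sets, 2 passed it, where chance gives about 1 in 20, or 2.55. Pkm in Low replicate 61 had a scaled coverage of 375, while the other 7 Low rats had 480.2 to 572 (gap over range 0.532). This is the rat with the highest mitochondrial share, 33.8%. Aldoc in Low replicate 57 had a scaled coverage of 638, while the other 7 Low rats had 504 to 562 (gap over range 0.569). This is the rat with the highest average of the 10 enzymes, 0.34 above the Control mean on the log2 scale, and its Aldoa was 2237, so its Aldoc/Aldoa ratio of 0.285 lay within the Low range of 0.248 to 0.346.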

How the results depend on the processing

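No paired analysis was possible because the replicate numbers, 49 to 72, are not shared between groups. In High against Control 0 of 10 enzymes and 0 genes were called under every alternative run, while the signs of single enzymes turned. On the main scale 2 of 10 were above 0, and without scaling 10 of 10, where the median of all genes was 0.14. With assembled loci added, or without Control replicate 51 or High replicate 70, 0 of 10 were above 0. In Low against Control the 10 enzymes stayed above 0 under each alternative except the addition of assembled loci, and the number called was 0, except 5 with the sum outside the mitochondrial genome, 8 with the TPM column, 10 with the FPKM column, 10 with the sum over all rows of the table, 10 with assembled loci added and 2 without Low replicate 61. The FPKM, TPM and all-row scalings moved the median of all genes in Low against Control to 0.53, 0.17 and 0.80, and the median of the enzymes minus that median was 0.17, 0.12 and 0.18, beside 0.10 on the main scale. That difference was smaller with median-of-ratios scaling (0.094) and with a minimum mean of 5 (0.083). In Low against High it was 0.078 and 0.069 under these 2 alternatives, beside 0.086 on the main scale. In Low against High, 9 of 10 enzymes were below 0 without scaling (median -0.041, all genes -0.11), and 0 were called. Adding the assembled loci, which only Control and High tables hold, moved the median of all genes to -0.85 and -0.80. A repeat of coverage by this step was shown for Tpi1 and Pgam1 in all 16 Control and High tables. For Eno2, Gpi and Pkm it was shown in 1 of these tables each and for Pfkm in 2. The step turned Low against Control to -1.19 (Hk1), -0.35 (Gpi), -1.18 (Pfkm), -0.32 (Pfkp), -0.53 (Aldoa), -0.85 (Tpi1), -0.81 (Pgam1), -1.43 (Eno1), -0.67 (Eno2) and -0.57 (Pkm). It turned Low against High to -0.21 (Gpi) and -0.14 (Pfkp), which were not called, and to -1.11 (Hk1), -1.18 (Pfkm), -0.41 (Aldoa), -0.82 (Tpi1), -0.77 (Pgam1), -1.42 (Eno1), -0.59 (Eno2) and -0.51 (Pkm). The enzymes' median minus that of all genes was then 0.12 in both comparisons with Low.

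The number of all genes called in Low against Control was 956, and 556 with a minimum mean of 5, 628 without scaling, 1688 outside the mitochondrial genome, 14392 with all rows, 12393 with FPKM, 3952 with TPM, 15070 with assembled loci, 566 with 2 groups only, 361 with libraries 56 to 62 as a covariate, 370 with the Wilcoxon test and 675 to 1229 with a rat left out. In Low against High it was 1828, and 1192 with a minimum mean of 5, 1133 without scaling, 14415 with all rows, 12410 with FPKM, 3927 with TPM, 14725 with assembled loci, 354 with the covariate, 1134 with the Wilcoxon test and 1272 to 2677 with a rat left out. In High against Control a rat left out gave 0 to 0 calls.

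For genes named from the lists the same alternatives were added after seeing the data. Of their 8 calls, 8 were lost with median-of-ratios scaling, without scaling and with libraries 56 to 62 as a covariate, 6 with no filter, 4 with the Wilcoxon test, 2 with 2 groups only and 0 with a pseudocount of 0.1, a minimum mean of 5 or the sum outside the mitochondrial genome. Without scaling, Low against High was -0.0049 for Bpgm, -0.043 for Dld, -0.026 for Dlst and -0.0026 for Pdha1, which was -0.016 with TPM. With assembled loci added, Low against High was -0.57 for Bpgm, -0.36 for Dld, -0.48 for Dlst, -0.44 for Pdha1, -0.69 for Pdk3, -0.50 for Slco1a4 and -1.22 for Gbe1, and Low against Control was -1.25 for Gbe1, -0.65 for Ldha, -0.76 for Pfkl and -0.79 for Pgk1. In Low against Control Aldoc was 0.55 with FPKM and 0.71 with all rows, and Mpc2 0.37 and 0.68, against 0.28 and 0.58 in Low against High.

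Of the ratios, Aldoc/Aldoa in Low against Control lost its call with FPKM (-0.15) and lay between -0.32 and -0.25 with a rat left out. Pfkp/Pfkm in Low against High was -0.027 with FPKM. With assembled loci added, Eno2/Eno1 was 0.76, Pfkp/Pfkm 0.87 and Ldhb/Ldha -0.27 in Low against Control, Eno2/Eno1 -0.062, Aldoc/Aldoa 0.14 and Ldhb/Ldha 0.076 in High against Control, and Eno2/Eno1 0.83, Pfkp/Pfkm 1.04, Aldoc/Aldoa -0.59 and Ldhb/Ldha -0.35 in Low against High. With a rat left out, Eno2/Eno1 lay between -0.037 and 0.049, Pfkp/Pfkm between -0.061 and 0.0066 and Ldhb/Ldha between -0.22 and -0.13 in Low against Control. In High against Control the ranges were -0.023 to 0.032 for Eno2/Eno1, -0.11 to -0.036 for Pfkp/Pfkm, -0.090 to 0.0011 for Aldoc/Aldoa and -0.055 to 0.046 for Ldhb/Ldha. In Low against High they were -0.046 to 0.040, 0.010 to 0.084, -0.29 to -0.19 and -0.22 to -0.12 in the same order. The causes were not tested. Without read counts the counting error behind a value is unknown.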
